A study of Mus musculus with 4 samples.

Results

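Gm10800, Gm10801, Gm10717, Gm10718, Gm10720, Gm10721, Gm10722 and Gm11168 are 8 predicted mouse genes listed as overlapping major satellite repeats. That overlap was taken from the list and was not compared with a repeat annotation or a satellite consensus, while the repeats within their own sequences are described here. They were taken by name from the 54532 rows of the deposited FPKM table (fragments per kilobase of gene length, scaled to library size), and all 8 names were present. The group was chosen by the FPKM of Gm10800, which had the largest rise in the Piezo1KO libraries, so its values and those of the other members between the groups are given as a description, without a test. The table holds 4 libraries labelled as CD4+ T cells that infiltrated tumours of B16, a mouse melanoma line. Of these, 2 are labelled Piezo1KO (Piezo1KO 1 and Piezo1KO 2) and 2 are labelled WT (WT 1 and WT 2). Piezo1 encodes an ion channel that responds to stretch of the membrane. The labels do not give the allele, the Cre or promoter, the strain, or the age of the mice, nor do they say if each library came from its own animal.

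Major satellite is the tandem repeat that fills the pericentromeric heterochromatin of mouse chromosomes, the dense regions beside the centromeres that stain as chromocentres. These arrays carry trimethylated lysine 9 of histone H3 and HP1 proteins, and they are mostly silent. Short transcripts from either strand are known from some developmental stages, stressed cells and tumours. Most of the arrays are missing from the assembled genome, so a few annotated fragments stand for a very large number of near-identical copies.

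The members lie at 2 places in GRCm38. Gm10800 (ENSMUSG00000075014, minus strand, 98666547 to 98667301) and Gm10801 (ENSMUSG00000075015, plus strand, 98662237 to 98664083) lie 2463 bases apart on chromosome 2. The other 6 lie on the plus strand at the assembled start of chromosome 9, between bases 3000922 and 3033289. All 8 have the biotype protein coding, but no stop codon is annotated in any of their 19 transcripts in GENCODE M21. Of 66 gaps between their exons, 24 are shorter than 10 bases. Gm10800 has 5 exons, of 123, 306, 12, 150 and 69 bases in order of position, all annotated as coding.

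The sequences show what the members share. The stretch of the Gm10800 transcript with the most bases in common is given first, followed by its best match in Gm10801, the neighbour on chromosome 2, and in Gm10722, which had the most reads on chromosome 9. Capitals mark words of 12 bases that the transcripts of all 8 members hold. The stretches lie in transcripts of GRCm38 chr2:98666547-98667301 (minus strand), chr2:98662237-98664083 (plus strand) and chr9:3000922-3002330 (plus strand), and are written 5′ to 3′.
Gm10800: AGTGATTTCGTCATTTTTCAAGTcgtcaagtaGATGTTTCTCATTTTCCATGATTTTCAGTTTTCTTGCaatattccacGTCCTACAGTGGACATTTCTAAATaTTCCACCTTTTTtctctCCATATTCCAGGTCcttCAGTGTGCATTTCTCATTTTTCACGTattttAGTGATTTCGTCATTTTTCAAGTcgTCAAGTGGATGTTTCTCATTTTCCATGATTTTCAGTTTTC
Gm10801: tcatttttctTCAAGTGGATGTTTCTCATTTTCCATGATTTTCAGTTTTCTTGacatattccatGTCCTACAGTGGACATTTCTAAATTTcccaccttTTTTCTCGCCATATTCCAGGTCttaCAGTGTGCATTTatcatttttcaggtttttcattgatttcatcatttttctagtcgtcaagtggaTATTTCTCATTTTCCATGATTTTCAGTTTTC
Gm10722: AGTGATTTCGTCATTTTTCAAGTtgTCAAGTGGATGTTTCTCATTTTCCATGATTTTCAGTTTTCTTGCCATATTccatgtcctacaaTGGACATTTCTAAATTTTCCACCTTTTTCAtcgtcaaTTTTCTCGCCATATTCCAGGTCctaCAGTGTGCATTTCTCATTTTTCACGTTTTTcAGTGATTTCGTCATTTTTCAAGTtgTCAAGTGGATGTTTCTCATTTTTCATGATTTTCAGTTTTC

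In these stretches Gm10801 was identical to Gm10800 at 202 of 219 aligned bases and Gm10722 at 222 of 234. Gaps, 5 bases for Gm10801 and 12 for Gm10722, were left out of these counts. At least 1 of the 132 words of 12 bases shared by all members is also in 2.24% of 141738 transcripts outside the family. The capitals cover 85.0% of the Gm10800 stretch, 61.2% of that of Gm10801 and 88.6% of that of Gm10722. The longest word that all 8 members hold has 41 bases, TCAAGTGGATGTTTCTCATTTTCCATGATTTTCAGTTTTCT. Searched on both strands, it occurs in 4 other genes of the whole transcript set, namely Gm10719, Gm17535, Gm21738 and Gm26870. Over whole transcripts, the 18 transcripts of the other 7 members were 92.5 to 94.8% identical to Gm10800 over 489 to 658 aligned bases, again without gaps. This was in the annotated orientation, and in the opposite one they matched it over at most 22 bases.

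Each transcript also repeats within itself. Slid along itself, it matched best at a shift of 234 bases in 13 of the 19 transcripts, and the best shift of the others lay between 225 and 237 bases. Identity at the best shift was 52.7 to 69.7%, and it was 56.3% at 225 bases for Gm10800. The median of the best shift between 20 and 300 bases was 32.4% in 41862 other transcripts of 400 to 800 bases, of which 0.225% reached the lowest value of a member. Among shifts of up to 100 bases, all 19 transcripts matched best at 58 bases, with 47.3 to 58.7% identity. The annotated strand is rich in T, at 45.8 to 48.6% of bases, against a median of 23.4% in the same other transcripts. The longest run of A on that strand has 4 bases and the longest run of T has 7.

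**Figure D1:**
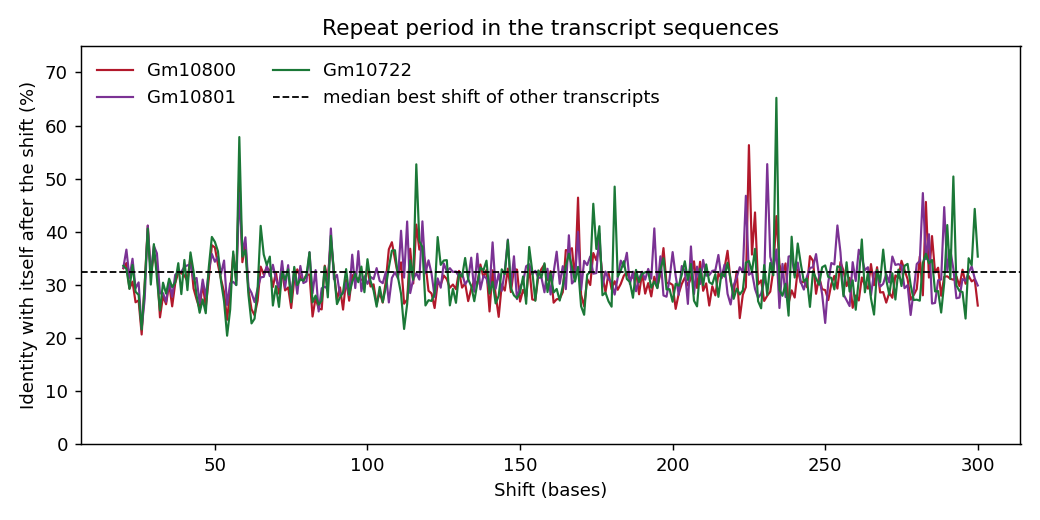
Identity of a transcript with itself (%, y axis) after a shift of 20 to 300 bases (x axis), for Gm10800, Gm10801 and Gm10722, with the median best shift of 41862 other transcripts as a dashed line at 32.4%. All 3 lines peak at 58 bases and again at their best shift, 225 bases for Gm10800, 231 for Gm10801 and 234 for Gm10722.

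Words shared between genes bear on what a read count of a member means, since a read from a shared word can come from any copy. How reads with several alignments were treated is unknown. Of the words of 50 bases in Gm10800, 72.6% are found in no other annotated gene, and the share is 82.9% for Gm10801. On chromosome 9 it is 53.6% for Gm10717, 46.4% for Gm11168, 37.0% for Gm10722, 25.1% for Gm10718, 15.7% for Gm10721 and 11.7% for Gm10720. The 2 genes of chromosome 2 are thus the most distinct of the 8 within the annotation, while satellite arrays outside it were not compared. Gm26870, a long intergenic RNA annotated on the minus strand, also has exons on 41.1% of the exonic bases of Gm10721, 22.8% of those of Gm10718 and 12.4% of those of Gm11168. The labels give no strand setting, so reads of these overlaps cannot be placed on a strand.

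**Figure D2:**
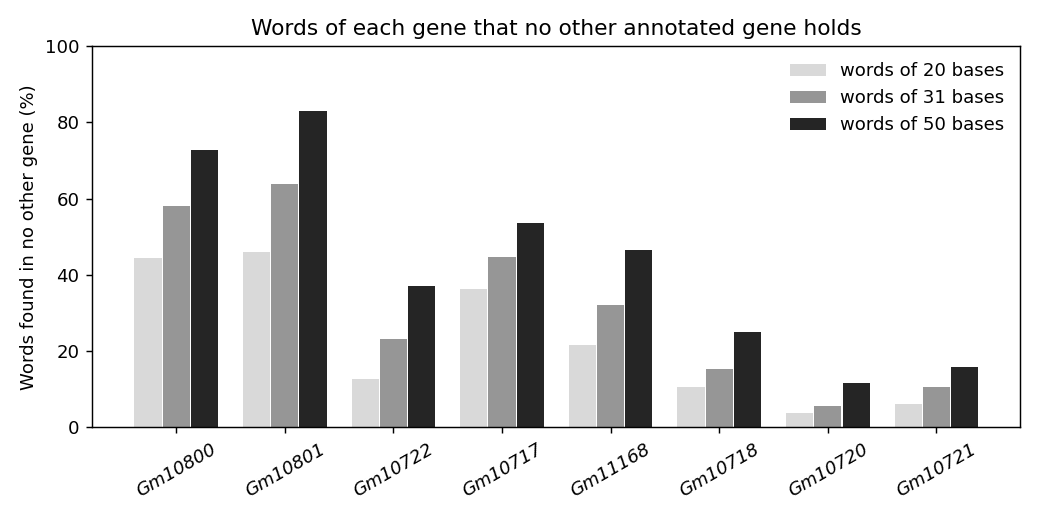
Share of the distinct words of 20, 31 and 50 bases of each member (bars, %) that no other gene of the GENCODE M21 transcripts holds. Gm10800 and Gm10801 have the highest shares at 50 bases, 72.6% and 82.9%, and Gm10720 the lowest, 11.7%.

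The libraries differ in ways that touch the values that follow. The FPKM values came in whole multiples of 1 step, which gave whole reads per gene and totals of 15331499 and 13789266 assigned reads in Piezo1KO 1 and Piezo1KO 2, against 15645069 and 15892797 in WT 1 and WT 2. Mitochondrial genes took 20.1% and 48.3% of these in the Piezo1KO libraries, against 3.86% and 2.99% in the WT libraries. The library size behind the FPKM was 0.962 and 0.544 times the assigned reads in Piezo1KO 1 and Piezo1KO 2, and 1.26 and 1.28 times in WT 1 and WT 2. Piezo1 had 18.7 and 7.64 FPKM in Piezo1KO 1 and Piezo1KO 2, against 27.8 and 27.6 FPKM in WT 1 and WT 2. The labelled cell type was barely present: 12 T cell genes took 0.00308% and 0.00123% of reads in the Piezo1KO libraries and 0.000876% and 0.000604% in the WT libraries, while 10 melanocyte genes took 1.94% and 1.06% in the Piezo1KO libraries and 2.39% and 2.45% in the WT libraries. Cd3e and Cd5 had 0 reads in Piezo1KO 2, Trac, Trbc1, Trbc2, Cd2 and Cd3g had 0 in WT 1, and Cd5 and Cd247 had 0 in WT 2. In such bulk samples fewer cells of a type and less RNA per cell cannot be told apart.

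Gm10800 was abundant in both Piezo1KO libraries and nearly absent from both WT libraries. It had 2065 reads in Piezo1KO 1 and 1063 in Piezo1KO 2, against 3 in WT 1 and 1 in WT 2. The deposited values were 212.1 and 214.9 FPKM in the Piezo1KO libraries, against 0.231 and 0.0745 FPKM in the WT libraries. The groups were far apart, and the WT values rest on 4 reads in all. Means were 213.5 ± 1.95 FPKM in Piezo1KO and 0.152 ± 0.110 FPKM in WT (SD, n = 2 each).

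Per assigned read, Gm10800 was 847-fold higher in the summed Piezo1KO than in the summed WT libraries, with an exact 95% interval of 330.4 to 3110 that covers counting error only. Its width comes from the 4 WT reads. By FPKM the gene ranked 185 of 18365 rows with a read in Piezo1KO 1 and 292 of 16301 in Piezo1KO 2, against 14024 of 19001 in WT 1 and 16760 of 19639 in WT 2. Of all 54532 rows, Gm10800 was the only one with at most 10 reads in the WT libraries together and at least 1000 in the Piezo1KO libraries together. The gene was chosen for its rise in these same libraries, so this describes that rise and is no separate evidence of it.

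**Figure D3:**
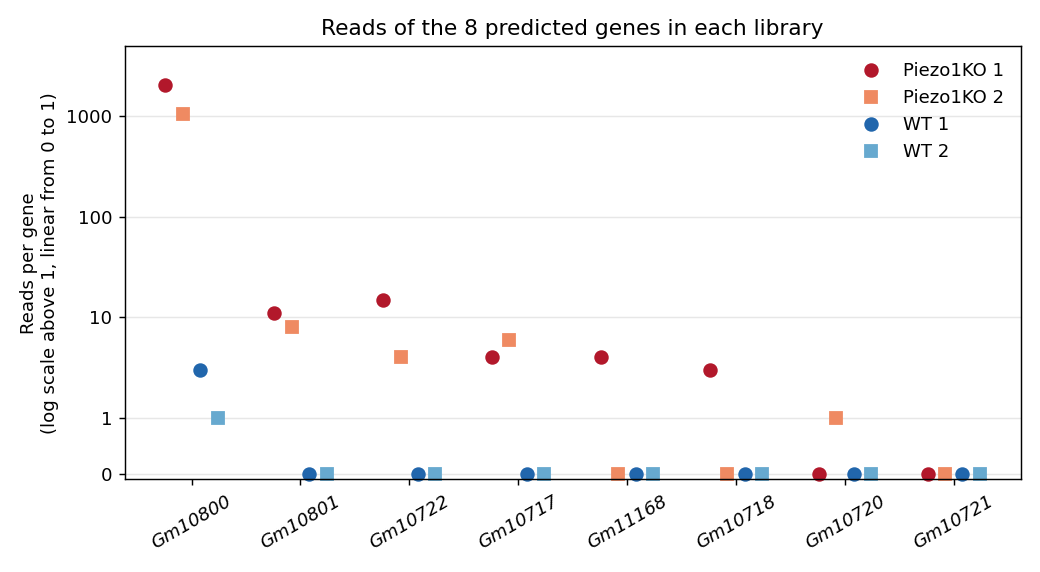
Reads assigned to each of the 8 members (x axis) in Piezo1KO 1, Piezo1KO 2, WT 1 and WT 2 (points, y axis on a log scale above 1 read and linear from 0 to 1). Gm10800 stands at 2065 and 1063 reads in the Piezo1KO libraries, no other member exceeds 15 reads in any library, and the 7 other members are at 0 in both WT libraries.

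The near-equal FPKM of Gm10800 in the Piezo1KO libraries depended on how the values were scaled. In CPM, which scales reads by all assigned reads of a library, it had 134.7 (95% interval 128.9 to 140.6) in Piezo1KO 1 and 77.1 (72.5 to 81.9) in Piezo1KO 2, a ratio of 1.75 (1.62 to 1.88). In CPM of the reads outside mitochondrial genes it had 168.7 and 149.0, a ratio of 1.13 (1.05 to 1.22). The ratio of the deposited FPKM was 0.987. On each of the 3 scales both Piezo1KO libraries lay above both WT libraries, where the gene had 0.192 and 0.0629 CPM of assigned reads.

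**Figure D4:**
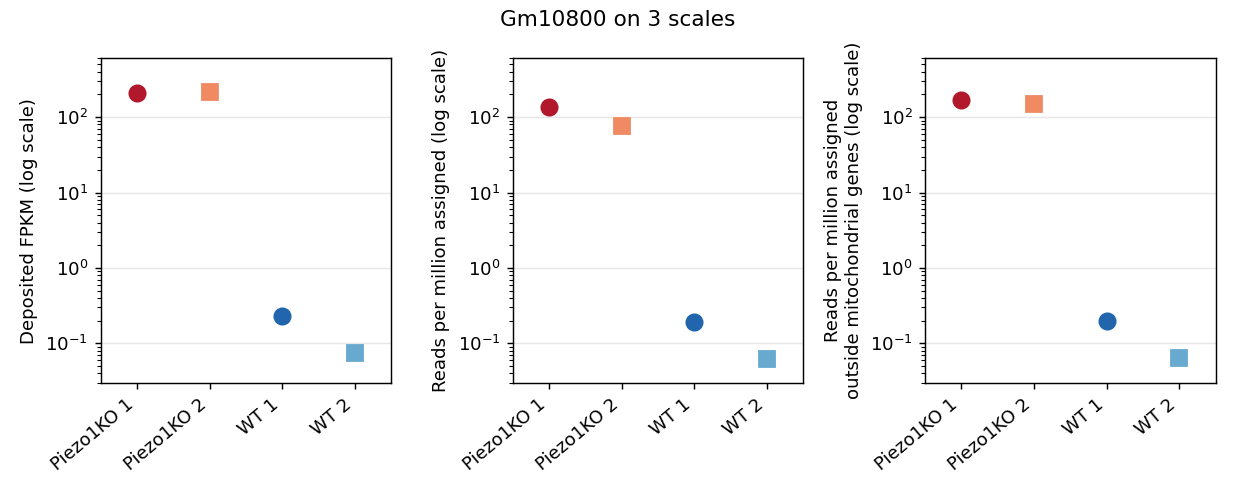
Gm10800 in each library as deposited FPKM, as CPM of assigned reads and as CPM of assigned reads outside mitochondrial genes (points, log y axes). Piezo1KO 1 and Piezo1KO 2 are 1.75-fold apart in CPM of assigned reads and close on the other scales, and WT 1 and WT 2 lie far below them on all 3.

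The 7 other members together had 37 reads in Piezo1KO 1 and 19 in Piezo1KO 2, against 0 in both WT libraries. Gm10800 thus held 98.2% of the members' reads in Piezo1KO 1 (exact 95% interval 97.6 to 98.8%) and 98.2% in Piezo1KO 2 (97.3 to 98.9%). Gm10801, which lies beside it on chromosome 2, had 11 and 8 reads in the Piezo1KO libraries. Its FPKM, a scale that takes gene length into account, was 1.48 and 2.12 there, far below that of Gm10800. Against a floor of 3 reads over the WT libraries together, Gm10801 was 6.86-fold higher per assigned read in Piezo1KO. This fold leaves out the counting error of its Piezo1KO reads.

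Of the 6 members on chromosome 9, Gm10722 and Gm10717 had reads in both Piezo1KO libraries. Gm10722 had 15 and 4 reads there, or 1.56 and 0.820 FPKM, and was 6.86-fold higher than the same WT floor. Gm10717, the longest member, had 4 and 6 reads, or 0.0703 and 0.208 FPKM, and was 3.61-fold higher than that floor. These folds also leave out the counting error of the Piezo1KO reads. Gm11168 had 4 reads and Gm10718 had 3 reads, in Piezo1KO 1 alone. Gm10720 had 1 read, in Piezo1KO 2 alone, and Gm10721 had 0 reads in all 4 libraries. For these last 4 the Piezo1KO and WT libraries overlapped at 0 reads, and no fold is given.

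Between groups, 4 of the 8 members (Gm10800, Gm10801, Gm10722 and Gm10717) were higher in both Piezo1KO libraries than in both WT libraries. Of 23654 rows with a read in any library, 21.7% were higher without overlap, and nothing is read from the members' count since their Piezo1KO values were known when they were chosen. Of the 8, Gm10800 alone passed the filter of a mean of at least 1 FPKM that the test across all genes used. Of the 11085 genes that passed it, 33.9% were higher in Piezo1KO without overlap, and limma called 1.1% in either direction. The log2 fold change of log2(FPKM + 1), Piezo1KO minus WT, was 7.54 for Gm10800, 1.48 for Gm10801, 1.11 for Gm10722 and 0.10 to 0.19 for Gm10717, Gm10718, Gm10720 and Gm11168. This scale understates the change of rows as low as the last 6 of these. It also understates that of Gm10800, which had only 0.231 and 0.0745 FPKM in WT 1 and WT 2. With 0.1 added to FPKM in place of 1, the log2 fold change of Gm10800 was 9.80.

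Sequence alone adds 5 rows to the family. Of the genes in the GENCODE M21 transcripts, Gm21738, Gm26870, Gm10719, Gm17535 and Gm10715 are the only ones outside the list that share a word of 31 bases with a member on either strand. Between 56.2% (Gm21738) and 93.9% (Gm17535) of the words of their best-matching transcript are also words of a member. All but Gm21738 lie within 50 kb of a member on chromosome 9, where the microRNA gene Mir101c, at 0 reads in all 4 libraries, is the one further annotated row. Gm10719, Gm17535 and Gm10715 had 0 reads in every library.

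Gm21738 and Gm26870 had reads in the Piezo1KO libraries. Gm21738 (ENSMUSG00000095280, GRCm38 chromosome 14, 19415857 to 19418930, minus strand) had 82 and 33 reads in Piezo1KO 1 and Piezo1KO 2, against 0 and 0 in WT 1 and WT 2. Its FPKM was 8.16 and 6.47 in the Piezo1KO libraries, so this row from yet another chromosome came next after Gm10800 among the 13 rows of the family. It was 41.5-fold higher per assigned read against 3 reads over the WT libraries together, with the counting error of its Piezo1KO reads left out. Of its words of 50 bases, 40.2% are also in a member, so its reads cannot be taken as independent of theirs. It passed the filter through the Piezo1KO libraries alone, and no test is given for it.

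Gm26870, the long intergenic RNA that runs opposite the chromosome 9 members, had 39 and 41 reads in the Piezo1KO libraries, against 0 and 1 in the WT libraries. Its FPKM was 0.982 and 2.03 in Piezo1KO 1 and Piezo1KO 2. For each 100 reads of Gm10800 it had 1.89 reads (exact 95% interval 1.34 to 2.59) in Piezo1KO 1 and 3.86 (2.75 to 5.27) in Piezo1KO 2. These intervals cover counting error only, and the Piezo1KO libraries differed by far more than counting error over all genes. Per assigned read, the ratio of Piezo1KO 1 to Piezo1KO 2 was 0.856 (0.537 to 1.36) for Gm26870 and 1.75 (0.982 to 3.22) for the 7 other members together. Per read outside mitochondrial genes these ratios were 0.554 (0.348 to 0.881) and 1.13 (0.636 to 2.09). In deposited FPKM the ratio of Gm26870 was 0.483.

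Of the 5 rows outside the list whose values over the 4 libraries lay nearest to those of Gm10800, 3 were genes of the mitochondrial genome. The measure was the Euclidean distance between centred log2(FPKM + 1) values among 11085 tested genes. The nearest were mt-Co3 (distance 0.972), mt-Atp6 (1.61) and mt-Co2 (1.71), which encode subunits of cytochrome oxidase and ATP synthase in the mitochondrial genome. Next came Gm29216 (1.99) and Gm10925 (2.12), unprocessed pseudogenes on chromosome 1. Whether these pseudogenes share sequence with mitochondrial genes was not compared. mt-Co3 had 2177 and 3392 FPKM in Piezo1KO 1 and Piezo1KO 2, against 30.5 and 20.2 FPKM in WT 1 and WT 2. A distance over 4 libraries ranks mainly the size of the difference between groups and describes these libraries only.

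Other transcripts were also higher in both Piezo1KO libraries than in both WT libraries. By FPKM this held for 33.9% of the 11085 tested genes, so it does not tie the lists below to Gm10800. The 7 erythroid genes took 0.388% and 0.356% of reads in Piezo1KO 1 and Piezo1KO 2, against 0.0390% and 0.0248% in WT 1 and WT 2, with all 7 detected in each library. The 8 neutrophil genes took 0.0132% and 0.00241% in the Piezo1KO libraries, against 0.000268% and 0.000289% in the WT libraries. All 8 were detected in both Piezo1KO libraries and in WT 2, and 7 of them in WT 1. The part of these transcripts, of the mitochondrial share and of library scaling in the values of Gm10800 was not tested. Rescaling to assigned reads or to reads outside mitochondrial genes left the log2 fold change of Gm10800 at 7.03 and 7.66. Both are on the log2(FPKM + 1) scale, which understates the change of this gene.

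The genes that keep pericentromeric heterochromatin in place showed no call. The list held 38 writers and readers of histone H3 lysine 9 methylation, DNA methyltransferases, histone chaperones and other factors. Of 37 tested, 0 passed in either direction (limma adjusted p of at least 0.0802), against 0.731% of 11085 genes called higher and 0.37% called lower. At an unadjusted p under 0.05, 10 were lower and 0 were higher, against 13.7% and 14.9% of all tested genes, and limma voom on the recovered reads also called 0. The median log2 fold change was -0.26, against -0.01 over all genes tested, and 25 of 37 (67.6%) were lower in Piezo1KO without overlap, against 35.6% of tested genes.

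The 4 members of the list with the smallest p were below WT in both Piezo1KO libraries. Dicer1, the ribonuclease that cuts double-stranded RNA and microRNA precursors, had 2.51 and 2.12 FPKM in Piezo1KO 1 and Piezo1KO 2, against 5.24 and 5.99 FPKM in WT 1 and WT 2. Its log2 fold change was -0.996 with a standard error of 0.15 (limma adjusted p = 0.0802). Morc2a, an ATPase of the silencing pathway that spreads H3 lysine 9 methylation, had a log2 fold change of -0.85 (SE 0.15, limma adjusted p = 0.0991). Rif1, which sets late replication of heterochromatin, had -0.71 (SE 0.17, limma adjusted p = 0.129). Atrx, a remodeller that places histone H3.3 at pericentromeres together with Daxx, had -0.65 (SE 0.16, limma adjusted p = 0.129).

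Suv39h1 and Suv39h2, the enzymes that trimethylate H3 lysine 9 on major satellite, are named after their values were seen. Suv39h1 had 7.08 and 7.92 FPKM in Piezo1KO 1 and Piezo1KO 2, against 7.03 and 7.08 FPKM in WT 1 and WT 2, a log2 fold change of 0.08 (SE 0.13). Suv39h2 had 1.31 and 2.60 FPKM in the Piezo1KO libraries, against 1.90 and 2.28 FPKM in the WT libraries, a log2 fold change of -0.10 (SE 0.27). The groups overlapped for both, but with FPKM rescaled to reads outside mitochondrial genes Suv39h1 was lower in both Piezo1KO libraries than in both WT libraries. On that scale the median log2 fold change of all tested genes was itself -0.20. There, 32 of the 37 tested genes of the list were lower without overlap, so nothing particular to Suv39h1 is read from this.

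The count of called heterochromatin genes moved with the libraries and the scaling used, and so did the count over all genes. Without Piezo1KO 1 it was 19, of which 18 were lower, while 27.0% of all tested genes were called higher and 25.4% lower. Without Piezo1KO 2 it was 3, all lower, while 1326 of all 11045 genes tested were called higher and 728 lower. In both fits the spread came from the WT libraries alone, and the lone Piezo1KO library was assumed to vary like them, although the median SD of log2(FPKM + 1) was 0.206 in Piezo1KO and 0.0749 in WT. With FPKM rescaled to all assigned reads, 11 were lower, while 12.9% of all tested genes were called lower, and the median of all genes moved to -0.67 and that of the list to -0.96.

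**Figure D5:**
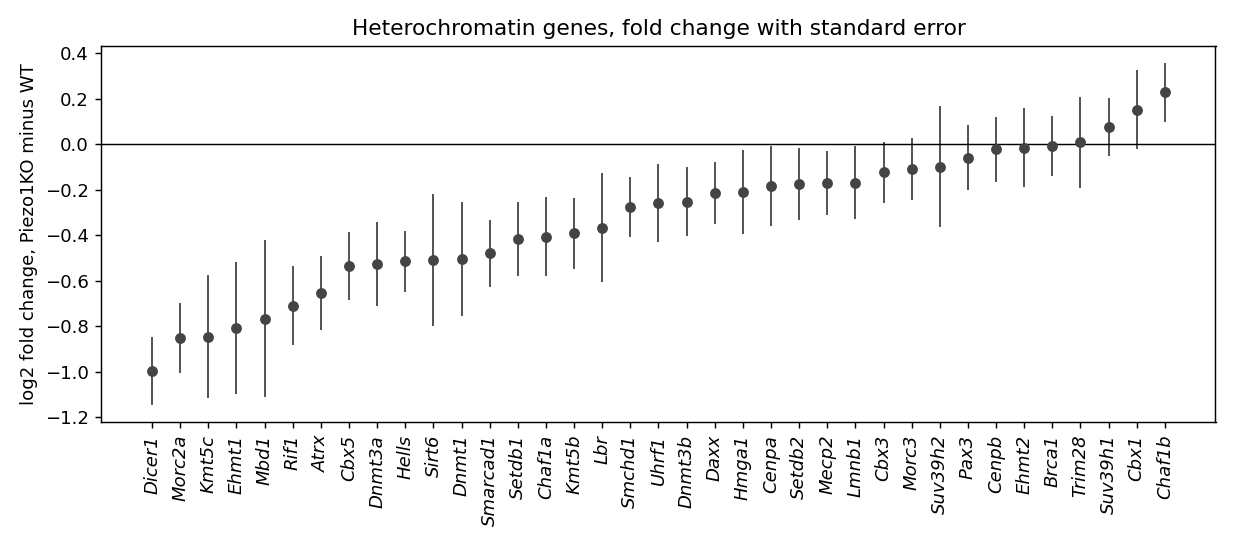
Log2 fold change of log2(FPKM + 1), Piezo1KO minus WT (points), with the standard error of limma (bars), for the 37 tested heterochromatin genes in rising order. Values run from -0.996 for Dicer1 to 0.23 for Chaf1b, 33 of 37 lie below 0, and none passed the test.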

How the data were processed

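The members and gene lists were chosen with earlier results of these data known. RNA sequencing was done on 4 libraries, from total RNA and a SMARTer mRNA kit per the labels' protocols. Per the submitters' processing notes, fastp 0.19.7 and featureCounts 1.5.0-p3 were used on mm10 (GRCm38). The sources used here do not give the aligner, the annotation release or how reads with several alignments were handled. The authors deposited FPKM values and gene lengths.

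FPKM multiplied by length was divided by its smallest value above 0 in each library. The share of values that came out whole within 0.05 reads was 99.99% in each Piezo1KO library and 100% in each WT library. This gave reads per gene. A floor of 3 reads and exact 95% binomial intervals cover counting error only.

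Log2(FPKM + 1) was tested with limma 3.58.1 in R 4.3.3 (intensity trend, two-sided, Benjamini-Hochberg, threshold 0.05) in 11085 genes with a mean of at least 1 FPKM. As no label names separate animals, p-values reflect the spread among these 4 libraries alone, and that spread may be technical. No exact test of 2 against 2 can go below p = 0.333. Replicates differed by more than counting noise (chi-square per degree of freedom of 245 in Piezo1KO and 7.59 in WT). The fit was also run on simulated data in which both groups had the same spread. The real libraries differ from that, so the run does not show how the fit performs here. Alternatives were 2 rescalings of FPKM, a replicate block, a mean of at least 5 FPKM, no filter, a pseudocount of 0.1, limma voom on the recovered reads, and leaving out each library.

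Genes were named by a rule: the 8 members, annotated rows within 50 kb, the 5 tested rows nearest to Gm10800, and of the heterochromatin list those that passed and otherwise the 4 with the smallest p. Rows related to ribosomal RNA were named too. Sequences are transcripts of GENCODE M21 (GRCm38), aligned locally with Biopython 1.88 (match 2, mismatch -3, gap opening -5, gap extension -2).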

Additional observations from a re-analysis of the deposited data

How the results depend on the processing

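Gm10800 kept its direction in all alternatives, from a log2 fold change of 7.03 with FPKM rescaled to all assigned reads to 10.3 in limma voom. It was chosen for its rise in these same libraries, so the kept direction is no separate evidence of that rise. The filters and the replicate block could not change its value at all. The replicate numbers of the titles are not known to pair libraries (the deviations of same-numbered libraries correlated at -0.03). Library names and the replicate block used here follow the titles. In the sample descriptions WT 1 and WT 2 carry the numbers 2 and 3, and Piezo1KO 1 and Piezo1KO 2 carry 1 and 2. Of 11085 tested genes, 81 were called higher and 41 lower in Piezo1KO. The counts were 192 and 72 with the replicate block, 1 and 0 without a filter, and 277 and 1430 with FPKM rescaled to all assigned reads. The count lower was 10 at a mean of at least 5 FPKM, 10 in voom and 27 with a pseudocount of 0.1. Leaving out 1 library gave 0 to 2985 higher and 0 to 2804 lower (0 and 0 without WT 1 or WT 2, 1326 and 728 without Piezo1KO 2). With 0 calls in limma, 704 and 582 genes had an unadjusted p under 0.05 without WT 1 and WT 2, against 3170 with all libraries. Called heterochromatin genes numbered 0 to 19 when 1 library was left out, and 11 with rescaling to all assigned reads. Gm26917 turned to -0.26 with that rescaling, against 0.52 as deposited. Among values of the members, 56 moved by less than the spread between replicates or not at all and 10 by more. None changed sign, but with 0 WT reads the 7 other members could not turn negative, so this was fixed in advance for them. Gm10718 and Gm11168 fell to 0 without Piezo1KO 1, and Gm10720 fell to 0 without Piezo1KO 2. The causes were not tested. With 4 reads in WT, depth limits how well the fold of Gm10800 is known, and for the 7 other members it limits whether any WT level could be seen.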

Other observations

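Of 7 further rows listed as tied to ribosomal RNA or to repeats, 5 were present in the table. Gm26917, a long intergenic RNA row of chromosome 17, had 1677 and 984 reads in Piezo1KO 1 and Piezo1KO 2, against 2167 and 1306 in WT 1 and WT 2. Its FPKM was 34.2 and 39.4 in the Piezo1KO libraries, against 33.0 and 19.3 in the WT libraries, a log2 fold change of 0.52 that turned to -0.26 with FPKM rescaled to all assigned reads. Gm42418, AY036118 and n-R5-8s1 had 0 reads in all 4 libraries, and Gm26870 is described among the satellite rows.

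Rows named as olfactory or vomeronasal receptors, which are silent outside sensory tissue for the most part, were also counted. Of 1979 such rows, 97 and 46 had a read in Piezo1KO 1 and Piezo1KO 2, against 31 and 31 in WT 1 and WT 2. Over all 54532 rows, 18365 and 16301 had a read in the Piezo1KO libraries, against 19001 and 19639 in the WT libraries. The reads of the receptor rows summed to 235 and 134 in the Piezo1KO libraries, against 99 and 99 in the WT libraries. These were 0.00153% and 0.000972% of assigned reads, against 0.000633% and 0.000623%. This list was added after the values of the members were seen, and its relation to them was not tested.

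Among 766 tested rows named Gm and a number, the median log2 fold change was 0.29, against -0.01 over all 11085 tested genes, and 39.2% were higher in Piezo1KO without overlap, against 33.9% of all tested genes. Among rows with a read in any library the order was the other way: the median was -0.03 over 5967 rows named Gm and a number and -0.01 over all 23654 rows, and 10.2% against 21.7% were higher in Piezo1KO without overlap.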
